A study of Mus musculus with 2 samples.

Results

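The red cell membrane and skeleton genes are a set of 8 named genes, Slc4a1, Ank1, Sptb, Epb41, Epb42, Gypc, Rhag and Dmtn, listed by symbol. No cut on a measured value was used, but the set was chosen with earlier results of these data known. Counts of members beside shares of all genes are thus descriptions. All 8 were among the 32285 genes counted in both libraries. The samples were live spleen cells of chronically anaemic C57BL/6 mice, 1 library from mice injected with PHZ and 1 from mice that were bled, in both cases at intervals of 3 days over 1 month, read with droplet 3′ single-cell RNA sequencing. PHZ is the usual abbreviation of phenylhydrazine, a compound that oxidises haemoglobin and destroys red cells. No library of untreated mice was analysed here, and the number of mice behind each library is not given in the labels. With 1 library in each group, no test between PHZ and bleeding was possible. Ratios carry exact 95% intervals for counting error only, and any difference between mice lies outside them.

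The proteins of these genes build the shell that lets a red cell bend and spring back. Beneath the lipid bilayer, spectrin tetramers form a net that is tied to the membrane at ankyrin sites, where band 3 sits, and at junctions of actin, protein 4.1 and glycophorin C. In humans, inherited defects of ankyrin, band 3, spectrin or protein 4.2 cause spherocytic anaemia, and defects of protein 4.1 or spectrin cause elliptocytosis. The spleen of an anaemic mouse is a site of red cell production as well as of red cell removal, so erythroid cells of every age can be sampled there beside lymphocytes and myeloid cells.

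Erythroid-like cells were 3046 of 6113 PHZ cells and 2269 of 8953 bleeding cells, and 83.8 to 92.6% of each member's UMIs (unique molecules counted) in PHZ cells lay in them, against 63.6 to 88.6% in bleeding cells. The rest is not all from other cell types. Unnamed clusters 15 and 18, described below, lay outside this class and held 13371 and 9544 member UMIs after PHZ. After bleeding those clusters held 5320 and 4434, against 226749 (PHZ) and 98839 (bleeding) in erythroid-like cells. The erythroid-like cells were ordered by the share of their UMIs that came from haemoglobin genes: under 20% (240 PHZ and 112 bleeding cells), 20 to 50% (244 and 99), 50 to 80% (890 and 387), 80% or more with at least 500 genes (407 and 201) and 80% or more with at least 300 but under 500 genes (1265 and 1470). The sixth group held the barcodes with 80% or more haemoglobin and at least 50 but under 300 genes (2539 and 2991), which lay below the gene filter and were not clustered. Levels are given as CPM, the UMIs of a gene in every 1000000 UMIs of the group with haemoglobin left out, since haemoglobin took 4.29% of UMIs in the first stage and 94.2% in the last after PHZ, against 2.97% and 94.2% after bleeding. The 26 erythroid markers, which also served to name the clusters, summed to 13009 to 166724 CPM over the 6 stages after PHZ. After bleeding they summed to 11780 to 201731 CPM. All 26 had UMIs in every stage of both libraries, but so had at least 13 of the 14 B cell markers. The presence of a UMI thus says little about cell type here. RNA of other cells was present at low level: the 14 B cell markers summed to 17.6 to 305 CPM over the 6 stages after PHZ and 48.4 to 781 CPM after bleeding, and the 13 neutrophil markers to 107 to 1532 CPM and 95.8 to 761 CPM; their part in the results was not tested. Within 2 points of the 20, 50 and 80% limits lay 34, 54 and 115 of the PHZ cells and 8, 27 and 80 of the bleeding cells. The stages followed known steps of maturation: Kit, the stem cell factor receptor of early progenitors, was at 24.6 CPM under 20% after PHZ and 41.7 CPM after bleeding, with at most 6 UMIs in any later stage, and Alas2, the first enzyme of haem synthesis in red cells, was at 125 and 92.3 CPM under 20% and 16112 and 17251 CPM at 300 to 500 genes. The libraries held 128130213 UMIs (PHZ) and 145260780 UMIs (bleeding), and kept cells had a median of 12242 and 8045 UMIs. They shared 15 cell barcodes, 0.245% of PHZ cells and 0.168% of bleeding cells.

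In GRCm38 coordinates of GENCODE M21, Slc4a1 (ENSMUSG00000006574) lies on chromosome 11 at 102348824 to 102366203 on the minus strand, Ank1 (ENSMUSG00000031543) on chromosome 8 at 22974844 to 23150497 on the plus strand and Sptb (ENSMUSG00000021061) on chromosome 12 at 76580488 to 76710547 on the minus strand. Epb41 (ENSMUSG00000028906) lies on chromosome 4 at 131923413 to 132075321, Epb42 (ENSMUSG00000023216) on chromosome 2 at 121017891 to 121037072 and Dmtn (ENSMUSG00000022099) on chromosome 14 at 70601263 to 70636048, all on the minus strand, and Rhag (ENSMUSG00000023926) on chromosome 17 at 40811126 to 40840754 on the plus strand. Ank1 overlaps 5 other annotated genes, among them Mir486 on its own strand and Gm15816 on the opposite strand; Sptb overlaps Plekhg3 and Epb41 overlaps Gm13063 and Gm10300, each on the opposite strand. Whether the counting used strand is not given in the sources used here, so reads of such pairs may not have been told apart.

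Promoter windows are shown for Sptb, Rhag and Epb42, whose levels peak in that order along maturation, since erythroid genes are commonly bound by GATA1, which recognises GATAA, and KLF1, which recognises CACCC. Each is the RefSeq window of 250 bases before to 50 after the gene start in GRCm38.p6, written 5′ to 3′ on the gene's strand, with matches to GATAA or CACCC on either strand in capitals (TTATC and GGGTG are those motifs read on the opposite strand).
Sptb, chr12:76710498-76710797, minus strand: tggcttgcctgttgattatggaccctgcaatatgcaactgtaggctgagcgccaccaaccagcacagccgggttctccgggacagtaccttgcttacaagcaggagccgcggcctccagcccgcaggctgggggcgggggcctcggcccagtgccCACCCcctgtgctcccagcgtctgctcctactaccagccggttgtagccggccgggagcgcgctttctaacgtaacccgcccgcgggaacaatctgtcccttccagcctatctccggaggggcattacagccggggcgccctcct
Epb42, chr2:121036828-121037127, minus strand: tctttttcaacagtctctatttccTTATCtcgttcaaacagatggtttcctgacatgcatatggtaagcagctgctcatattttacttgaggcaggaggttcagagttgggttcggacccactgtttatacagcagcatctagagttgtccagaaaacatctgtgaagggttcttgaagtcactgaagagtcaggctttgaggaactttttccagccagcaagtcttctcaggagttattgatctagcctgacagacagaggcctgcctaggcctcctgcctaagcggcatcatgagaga
Rhag, chr17:40810899-40811198, plus strand: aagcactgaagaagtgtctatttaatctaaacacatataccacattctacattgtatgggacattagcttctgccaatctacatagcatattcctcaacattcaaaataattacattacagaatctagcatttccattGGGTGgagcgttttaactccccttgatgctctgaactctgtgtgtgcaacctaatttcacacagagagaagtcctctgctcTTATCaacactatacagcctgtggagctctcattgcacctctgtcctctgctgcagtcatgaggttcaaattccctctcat
The Rhag window held GATAA at base -31 and CACCC at base -112 from the start, both on the opposite strand. Epb42 held GATAA on the opposite strand at -226, and Sptb held CACCC on its own strand at -95. Windows of 4 members were matched by symbol and searched, and the 3 Epb41 starts among them held neither motif. Of 32851 such windows for all genes, 25.4% held GATAA and 57.5% held CACCC, so a match is no more than a description of these letters.

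Summed over the 8 members, the level was lowest before haemoglobin accumulated and highest at 50 to 80% haemoglobin. The sums along the 6 stages were 2325, 11675, 22550.4, 18896, 19765 and 15578 CPM after PHZ, against 1836, 12149.6, 21404, 18911, 17168 and 16306 CPM after bleeding. All 8 members were at least 2-fold higher at 20 to 50% than under 20% after PHZ, as were 14.0% of 7056 genes measured, and after bleeding, as were 17.1% of 7274. All 8 were again past 2-fold at 50 to 80% after PHZ (17.1% of all genes) and after bleeding (17.3%), where the median of all genes was -1.22 and -1.25 on the log2 scale and that of the members 2.68 and 2.91 after PHZ and after bleeding. Later the calls parted: at 500 or more genes 3 of 8 were past 2-fold higher after PHZ (11.2% of all genes) and 6 of 8 after bleeding (13.0%). At 300 to 500 genes Slc4a1, Epb41 and Epb42 were past 2-fold higher in both libraries (8.13% after PHZ, 8.44% after bleeding), while Gypc in both and Rhag after bleeding were past 2-fold lower, as were 81.8% and 81.4% of all genes. At 50 to 300 genes the same 3 were higher (6.14% and 7.53%) and 2 members were lower in each library (84.4% and 82.6%). With haemoglobin UMIs kept in the denominator, 4 of 8 were past 2-fold at 50 to 80% in each library. Counted per barcode, the sum was highest at 20 to 50%: the members summed to 133, 151, 121, 45.7, 25.2 and 7.98 UMIs per barcode after PHZ and 105, 110.2, 99.6, 42.8, 19.8 and 10.0 after bleeding. Single cells of a stage spread widely, and at 50 to 80% the median cell held 112 (10th to 90th percentile 66 to 185) member UMIs after PHZ and 90 (10th to 90th percentile 61 to 153) after bleeding.

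**Figure D1:**
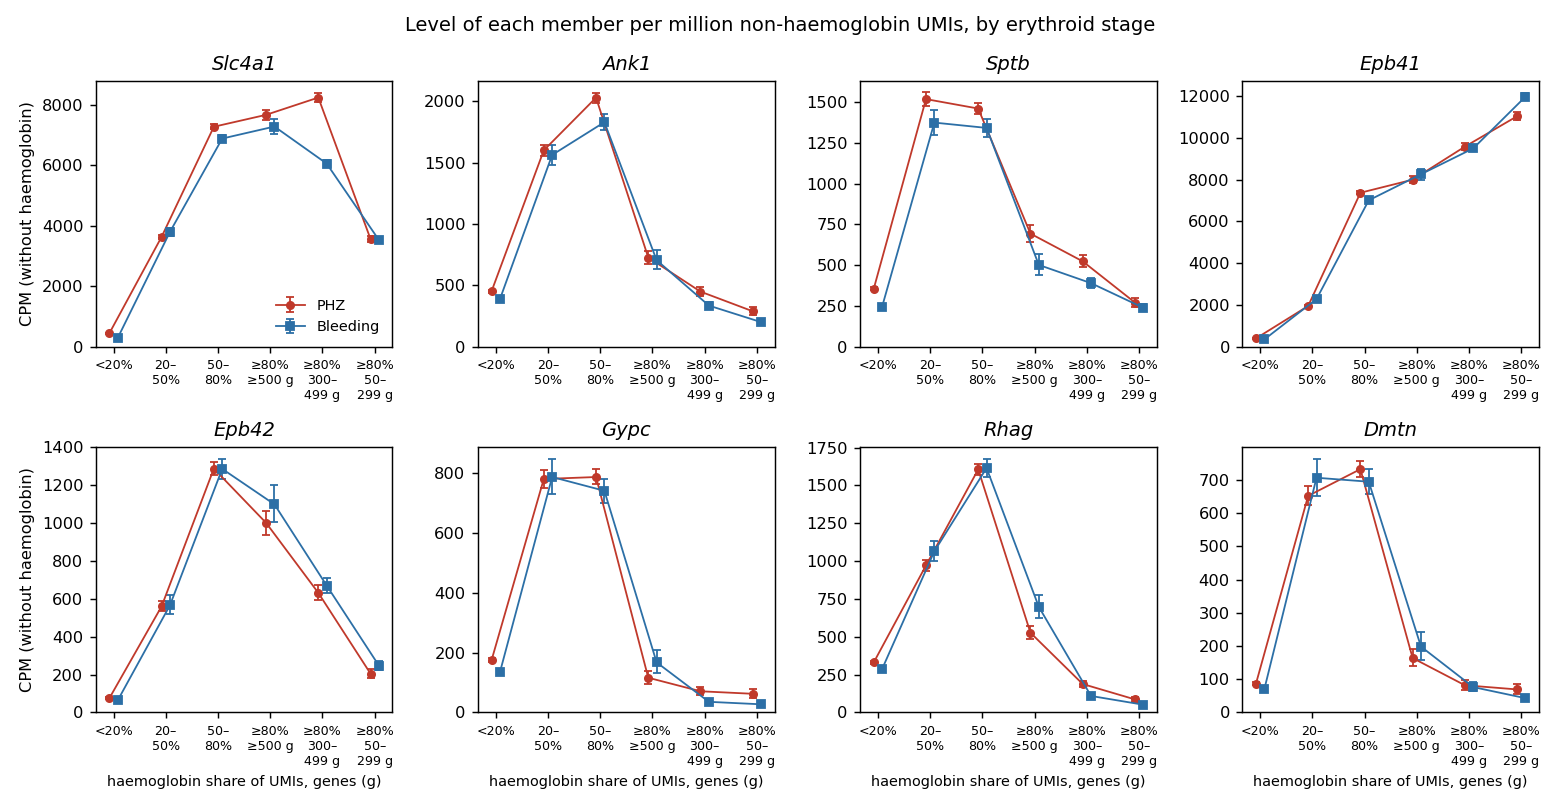
Level of each of the 8 genes, in CPM without haemoglobin UMIs, over the 6 erythroid stages (haemoglobin share of UMIs; g is the number of genes detected) after PHZ (red circles) and after bleeding (blue squares); bars are exact Poisson 95% intervals. Epb41 is highest at the last stage in both libraries, Slc4a1 stays high through 300 to 500 genes, and the other 6 are highest between 20 and 80% haemoglobin.

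The ankyrin and spectrin genes were highest in the middle stages. Ank1, the ankyrin that ties band 3 to spectrin, measured 453, 1601, 2031, 728, 450.0 and 289.8 CPM after PHZ, against 389, 1564, 1831, 706, 336 and 201 CPM after bleeding. Sptb, the beta chain of red cell spectrin, measured 356, 1517, 1459, 693, 524 and 271 CPM after PHZ, against 246, 1373, 1341, 502, 390.1 and 239 CPM after bleeding. Both were highest within 20 to 80% haemoglobin and lower at each later stage in both libraries. In narrower ranges Sptb was highest at 50 to 60% haemoglobin, with 2075 CPM after PHZ and 1989 CPM after bleeding, and at 70 to 80% it was at 923 and 732 CPM in the same libraries.

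Dmtn and Gypc shared this shape. Dmtn encodes dematin, which bundles actin at the junctions of the net; it measured 86.1, 652, 732, 164, 81.8 and 69.2 CPM after PHZ, against 69.3, 706, 694, 198, 76.2 and 42.9 CPM after bleeding. Gypc, glycophorin C, the transmembrane partner of protein 4.1 (ENSMUSG00000090523, chromosome 18 at 32528322 to 32560034, minus strand), measured 175, 779.8, 786, 116, 70.7 and 62.3 CPM after PHZ, against 134, 786, 740.4, 167, 35.5 and 27.1 CPM after bleeding. The ratio of Gypc at 300 to 500 genes over its level under 20% was 0.405 (0.332 to 0.488) after PHZ and 0.264 (0.200 to 0.343) after bleeding, so it ended below where it began. Such low late levels are read against free RNA: background barcodes of 10 to 100 UMIs held 307 CPM of Gypc after PHZ and 171 CPM after bleeding, above the late-stage values in both.

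Rhag, the ammonia-channel glycoprotein of the Rh complex, peaked later than Sptb. It measured 330.5, 971, 1606, 527, 188 and 86.1 CPM after PHZ, against 287, 1065, 1615, 698, 109 and 51.0 CPM after bleeding. In narrower ranges it was highest at 60 to 70% haemoglobin in both libraries, with 1713 and 1799 CPM after PHZ and after bleeding, and it was still 1620.2 and 1635 CPM at 70 to 80%. At 85 to 90% it was 288 and 292 CPM.

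Band 3 stayed high into the late stages, while its partner protein 4.2 (Epb42) was highest at 50 to 80% haemoglobin. In narrower ranges Epb42 was highest at 70 to 80%, with 1494 CPM after PHZ and 1548 CPM after bleeding. Slc4a1, the anion exchanger band 3, measured 449, 3640.1, 7281, 7675, 8247 and 3566 CPM after PHZ, against 295, 3804, 6890.3, 7288, 6062 and 3534 CPM after bleeding. Its ratio of 50 to 80% over under 20% haemoglobin was 16.2 (15.8 to 16.7) after PHZ and 23.3 (22.2 to 24.5) after bleeding, and past 80% it was still high where Ank1 and Sptb were low. Epb42, protein 4.2, which binds band 3 and ankyrin, measured 75.1, 560.0, 1287, 1000.5, 631 and 205 CPM after PHZ, against 63.9, 566, 1285, 1098, 669.7 and 247 CPM after bleeding. Both were higher stage by stage up to 80% haemoglobin; past it Epb42 was lower at every stage, while Slc4a1 was lower than the stage before it only in the last stage of the PHZ library and in the last 2 of the bleeding library. At the very start, under 2% haemoglobin, Slc4a1 measured 25.4 and 25.3 CPM after PHZ and after bleeding, against 1691 and 1617 CPM at 10 to 20%.

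Epb41 was the only member whose level was higher at each successive stage in both libraries. It encodes protein 4.1, which fastens spectrin to actin and to glycophorin C. It measured 401, 1954, 7368, 7992, 9573 and 11029 CPM after PHZ, against 352, 2285, 7008, 8254, 9489.5 and 11963 CPM after bleeding. Most of the increase fell between 50 to 60% haemoglobin, with 3848 and 2972 CPM after PHZ and after bleeding, and 70 to 80%, with 10529 and 10350.4 CPM. In narrower ranges the climb was not smooth, since 85 to 90% haemoglobin gave 7661 and 7640.1 CPM. Epb41 came to make up 70.8% of the members' UMIs in barcodes with 50 to 300 genes after PHZ and 73.4% after bleeding, against 17.2% and 19.2% under 20% haemoglobin.

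**Figure D2:**
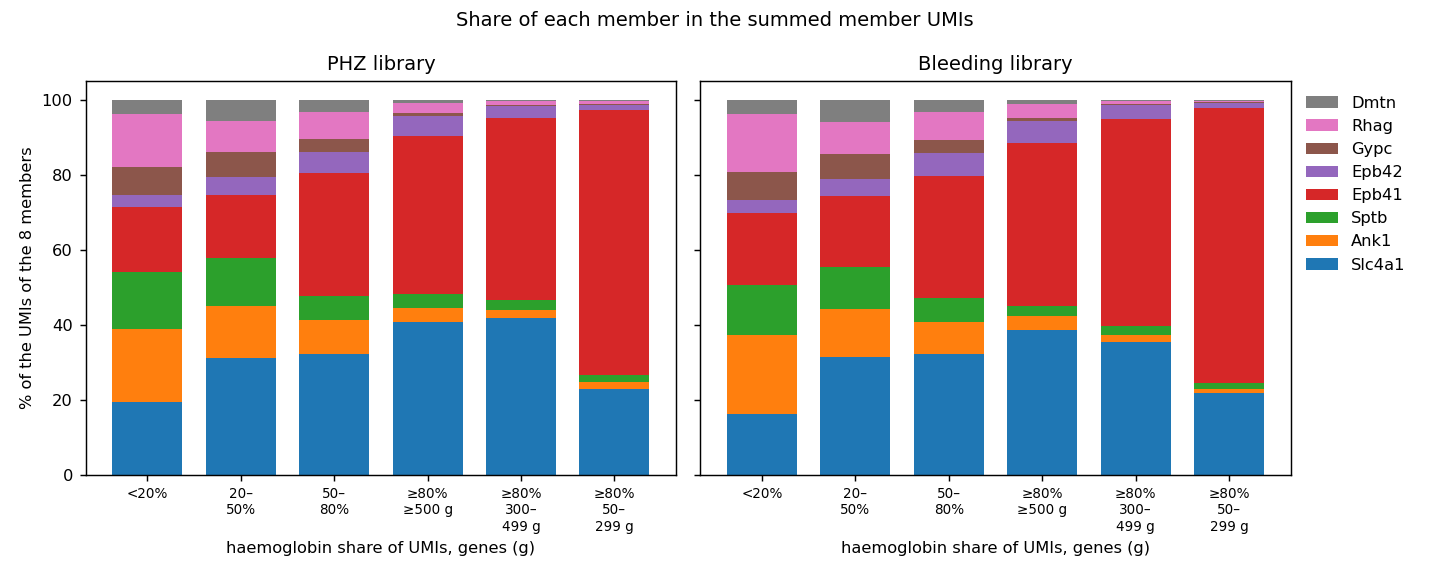
Share of each gene in the summed UMIs of the 8 genes, in percent, for the 6 erythroid stages of the PHZ library (left) and the bleeding library (right). Epb41 takes 70.8% and 73.4% in the last stage, and Ank1, Sptb, Gypc, Rhag and Dmtn, which fill a large part of the first stage, are thin bands there.

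Counts per barcode took another course than CPM, since later cells held less RNA: the median cell had 51508 UMIs without haemoglobin under 20% and 1242 at 300 to 500 genes after PHZ, and 47938 and 1103 after bleeding. Ank1 was already at its highest count per barcode in the first stage, with 26.0, 20.7, 10.9, 1.76, 0.574 and 0.148 UMIs per barcode after PHZ, against 22.2, 14.2, 8.52, 1.60, 0.387 and 0.124 UMIs per barcode after bleeding. Epb41 had 23.0, 25.3, 39.4, 19.3, 12.2 and 5.65 UMIs per barcode after PHZ, against 20.1, 20.7, 32.6, 18.7, 10.9 and 7.37 UMIs per barcode after bleeding, so its molecules per barcode were highest at 50 to 80% and lower afterwards while its CPM was higher at each stage. Slc4a1 had 25.8, 47.2, 39.0, 18.5, 10.5 and 1.83 UMIs per barcode after PHZ, against 16.9, 34.5, 32.1, 16.5, 6.98 and 2.18 UMIs per barcode after bleeding. Slc4a1 was thus highest at 20 to 50%, a stage before Epb41. Rhag had 18.9, 12.6, 8.59, 1.27, 0.240 and 0.0441 UMIs per barcode after PHZ, against 16.4, 9.66, 7.51, 1.58, 0.125 and 0.0314 UMIs per barcode after bleeding, highest in the first stage like Ank1. Dmtn had 4.94, 8.44, 3.92, 0.396, 0.104 and 0.0354 UMIs per barcode after PHZ, against 3.96, 6.40, 3.23, 0.448, 0.0878 and 0.0264 UMIs per barcode after bleeding. Per barcode, all 8 members had their highest counts in 1 of the first 3 stages in both libraries.

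**Figure D3:**
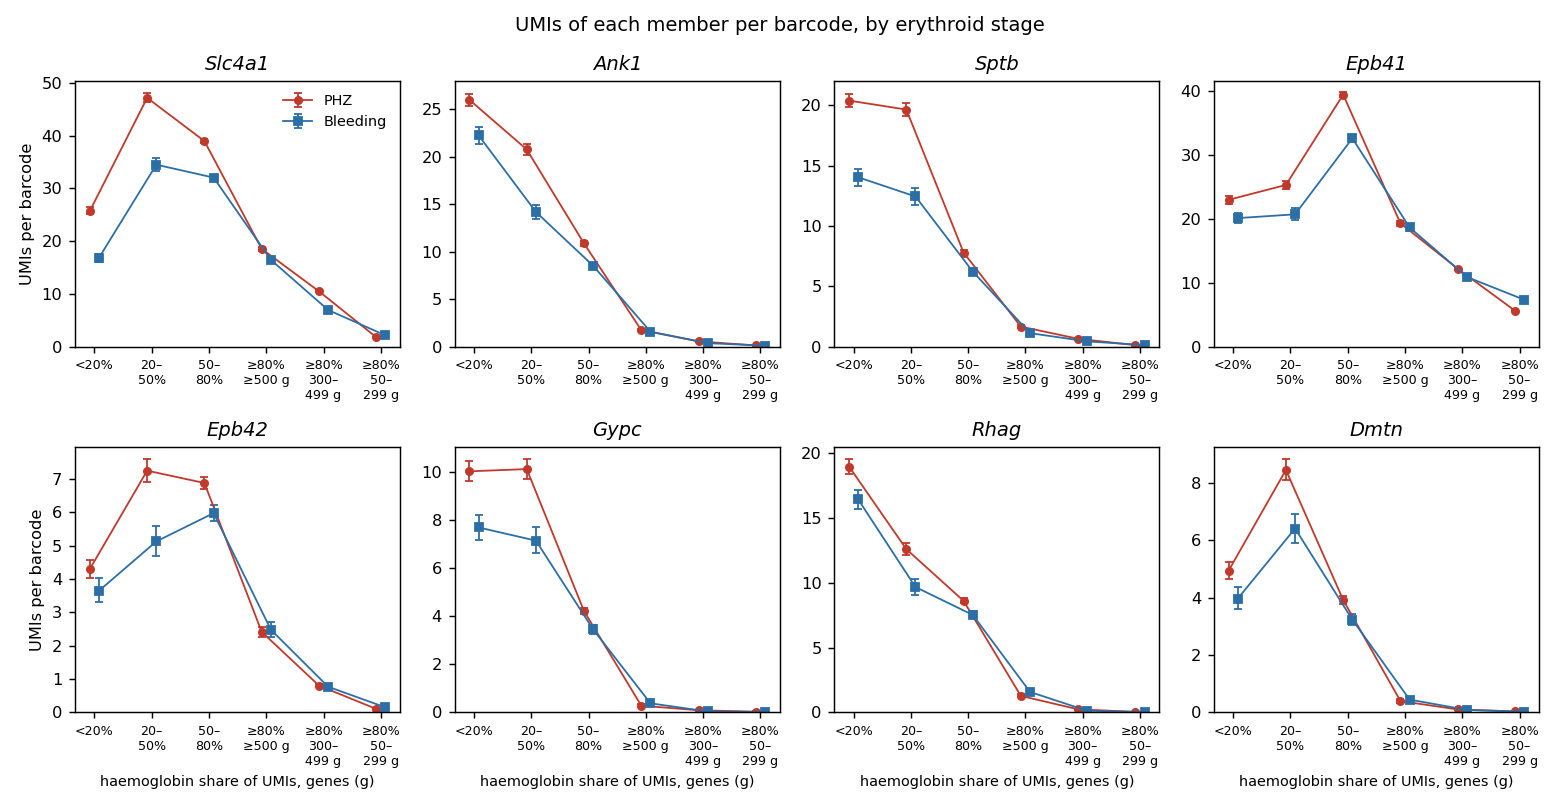
UMIs of each of the 8 genes per barcode over the 6 erythroid stages after PHZ (red circles) and after bleeding (blue squares), with exact Poisson 95% intervals. Ank1, Sptb and Rhag start at or near their highest count, Epb41 peaks at 50 to 80% haemoglobin, and all 8 genes are lowest in barcodes with 50 to 300 genes.

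Over the 12 points of 6 stages in 2 libraries, levels on the log2(CPM + 1) scale followed each other most closely for Ank1 and Dmtn (Pearson r = 0.987), Sptb and Dmtn (0.966) and Ank1 and Sptb (0.965). Slc4a1 went with Epb42 (r = 0.924) and Epb41 (0.899), while Epb41 and Gypc gave r = -0.296. The points share libraries and stage order, so r is a description. Among 5791 genes the profile most like that of Slc4a1 was Prdx2, a peroxiredoxin of red cells (r = 0.992), that of Ank1 was Capn5 (0.987), that of Sptb was Brpf3 (0.980), that of Epb41 was Gda (0.995), that of Epb42 was Fzr1 (0.987), that of Gypc was Hs6st1 (0.991), that of Rhag was C2cd5 (0.986) and that of Dmtn was Snx22 (0.991). Capn5 was among the 3 closest profiles of Ank1, Sptb and Dmtn alike.

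The other genes of the membrane and skeleton did not all follow one course. Of a wider list of 32 genes, 20 of 30 measured were at least 2-fold higher at 20 to 50% than under 20% after PHZ (14.0% of all genes). After bleeding 21 of 30 were (17.1%). At 300 to 500 genes 7 of 29 were higher (8.13% of all genes) and 12 lower (81.8%) after PHZ. After bleeding 8 of 30 were higher (8.44%) and 13 lower (81.4%). Among the genes of this list with most UMIs were the basigin gene Bsg, Cd47, which shields cells from phagocytosis, and Rhd, a partner of Rhag. Rhd measured 300.1, 1574, 2282, 591, 286 and 165 CPM after PHZ, against 306, 1899, 2563, 887, 279 and 101 CPM after bleeding. At 50 to 80% over under 20% haemoglobin, Bsg had a ratio of 3.87 (3.76 to 3.98) after PHZ and 4.38 (4.19 to 4.58) after bleeding, and Cd47 4.45 (4.32 to 4.59) and 4.27 (4.09 to 4.46). Rhd was highest at 50 to 80% haemoglobin and lower at each stage past 80%, as Rhag was.

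Over all erythroid-like cells, 7 of the 8 members had a PHZ over bleeding ratio above 1, as did 58.8% of 7091 genes, and none was past 1.5-fold higher (1.04% of all genes) or lower (2.67%). The median log2 ratio was 0.31 for the members and 0.04 for all genes. Sptb measured 748 CPM after PHZ and 543 CPM after bleeding, a ratio of 1.38 (1.34 to 1.42). Gypc measured 364 and 269.8 CPM, a ratio of 1.35 (1.29 to 1.41). Epb41 was the member with a ratio under 1, at 2887 and 3265 CPM and 0.884 (0.873 to 0.895). The remaining ratios were 1.08 (1.07 to 1.10) for Slc4a1, 1.28 (1.25 to 1.32) for Ank1, 1.04 (1.01 to 1.08) for Epb42, 1.20 (1.17 to 1.24) for Rhag and 1.28 (1.22 to 1.34) for Dmtn.

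These pooled ratios mix stages in unequal number: cells with 300 to 500 genes were 1265 of 3046 erythroid-like cells after PHZ and 1470 of 2269 after bleeding. The part of this mix in the pooled ratios was not tested. Within the 2 middle stages the libraries lay close together. At 20 to 50% haemoglobin 2 of 8 members were above 1 (47.6% of all genes) and the ratios spanned 0.855 (0.813 to 0.899) for Epb41 to 1.10 (1.04 to 1.18) for Sptb. At 50 to 80% 7 of 8 were above 1 (46.1% of all genes), between 0.994 (0.953 to 1.04) for Rhag and 1.11 (1.07 to 1.15) for Ank1. No member was past 1.5-fold in either stage, where 6.55% and 5.51% of all genes were past it upward and 8.49% and 5.95% downward.

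Under 20% haemoglobin all 8 members were above 1 (44.0% of 7509 genes), with 1 past 1.5-fold (0.573% of all genes). That member was Slc4a1, with 449 CPM after PHZ and 295 CPM after bleeding, a ratio of 1.52 (1.44 to 1.60); Sptb followed at 1.45 (1.37 to 1.53). This stage was also split in 2 by haemoglobin share. Of the PHZ cells, 126 had under 5% haemoglobin and 114 had 5 to 20%, against 74 and 38 bleeding cells. Split this way, Slc4a1 had a ratio of 1.18 (1.06 to 1.32) under 5% and 0.970 (0.914 to 1.03) at 5 to 20%. Under 5% all 8 members were above 1 (45.2% of all genes), and the intervals of Epb41, at 1.06 (0.994 to 1.13), and Epb42, at 1.05 (0.869 to 1.27), held 1. At 5 to 20% haemoglobin 7 of the 8 members were below 1 (44.6% of all genes), with Dmtn lowest at 0.755 (0.657 to 0.871). When every cell was given equal weight, 3 of 8 members were above 1 under 20%.

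Past 80% haemoglobin the members went separate ways. At 500 or more genes 3 of 8 were above 1 (41.6% of all genes), and Gypc measured 116 CPM after PHZ and 167 CPM after bleeding, a ratio of 0.693 (0.514 to 0.939). At 300 to 500 genes 7 of 8 were above 1 (54.3%) and 2 were past 1.5-fold (18.8%), Gypc at 70.7 and 35.5 CPM with a ratio of 1.99 (1.45 to 2.77) and Rhag at 188 and 109 CPM with 1.73 (1.43 to 2.09). Slc4a1 was 1.36 (1.33 to 1.40) there, with 13304 and 10256 UMIs after PHZ and after bleeding. At 50 to 300 genes 6 of 8 were above 1 (54.1%) and 3 were past 1.5-fold (21.3%): Gypc at 2.29 (1.59 to 3.33), Rhag at 1.69 (1.27 to 2.24) and Dmtn at 1.61 (1.18 to 2.21). Free RNA differed in the same direction, with 556 CPM of Rhag in PHZ background barcodes and 343 CPM in bleeding ones, and with the expected free RNA subtracted the log2 ratio at 300 to 500 genes was 1.22 for Gypc and 0.88 for Rhag. At 50 to 300 genes the subtraction left no value for Gypc, Rhag or Dmtn in at least 1 library, so their ratios in that group rest on counts within the range of free RNA. The log2 ratios of Slc4a1, Ank1, Sptb, Epb41 and Epb42 in that group were then -0.060, -0.035, -0.24, -0.11 and -0.60. Each was below 1 as a ratio once free RNA was subtracted, but no interval and no share of all genes is given for this setting. The signs of values as small as -0.060 for Slc4a1 and -0.035 for Ank1 are thus not settled.

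**Figure D4:**
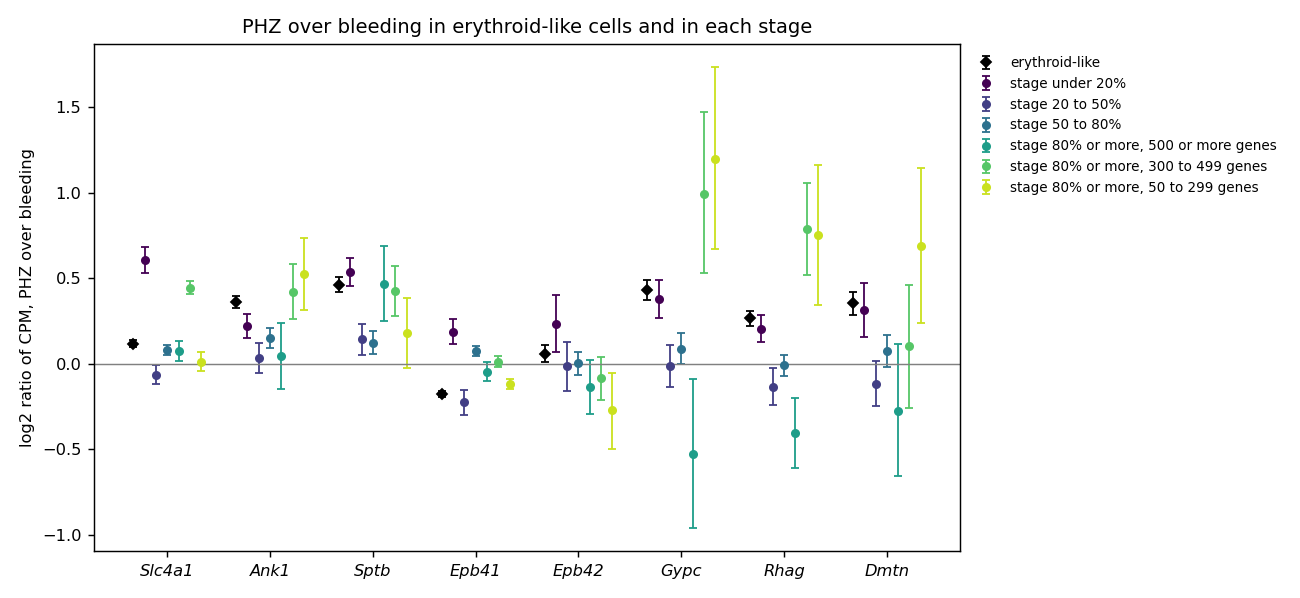
Log2 ratio of CPM, PHZ over bleeding, for each of the 8 genes in all erythroid-like cells (black diamonds) and in the 6 stages (circles, dark to light with maturation), with exact conditional 95% intervals that cover counting error only. The 20 to 50% and 50 to 80% stages lie near 0, with Epb41 at 20 to 50% (a ratio of 0.855) furthest off, and the widest spread is that of Gypc and Rhag past 80% haemoglobin.

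A pair of clusters outside the erythroid-like class also carried the members at high level. Cluster 15 (158 PHZ and 74 bleeding cells) was led by Sox6 and Slc25a21 and cluster 18 (139 and 81) by Tmcc2 and Sox6; the members took no part in the clustering. Both stayed unnamed, since their median UMI counts were low and none of the chosen markers was among their first 10 genes. Of their 50 leading genes, 4 in cluster 15 and 3 in cluster 18 were erythroid markers. Their summed member levels were 22209.6 and 20260.0 CPM in cluster 15 and 32202 and 31197 CPM in cluster 18, after PHZ and after bleeding. In cluster 15 Ank1 was at 3529.7 and 2997 CPM and Sptb at 3051 and 2563 CPM, both above every erythroid stage. Epb41 was at 18081 and 17801 CPM in cluster 18, likewise above every stage. Median UMIs per cell there were 2295 and 1854, and Malat1, a nuclear RNA, stood at 64535 and 64976 CPM, against 31053 and 30287 CPM at 50 to 80% haemoglobin.

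Outside the erythroid cells, in B cell-like and T cell-like cells, Epb41 and Gypc stood higher, relative to haemoglobin, than in background barcodes when haemoglobin-rich cells were left out. Each member's UMIs per haemoglobin UMI in a class were divided by the same quantity in background barcodes, in cells with under 5% haemoglobin UMIs (a value of 1 is the background barcodes' own ratio). The cells were thus chosen on haemoglobin, the denominator of the ratio, and the values of Epb41 and Gypc over all cells follow. In B cell-like cells (1515 PHZ and 3532 bleeding cells) Epb41 measured 178 CPM after PHZ and 165 CPM after bleeding, 5.88 (5.57 to 6.21) and 7.88 (7.53 to 8.24) times the background ratio. Gypc measured 31.0 and 30.3 CPM, 7.57 (6.61 to 8.66) and 13.0 (11.5 to 14.6) times it. The other 6 members lay between 0.856 and 1.27 times the background ratio after PHZ and between 0.563 and 0.996 after bleeding.

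Over all B cell-like cells Epb41 stood at 1.02 (0.967 to 1.07) times the background ratio after PHZ and 2.40 (2.30 to 2.50) times after bleeding. Gypc stood at 1.02 (0.892 to 1.16) times after PHZ and 3.54 times after bleeding, with a lower bound of 3.14. Both intervals thus lay above 1 after bleeding and held 1 after PHZ. The highest of the other 6 members over all B cell-like cells, Slc4a1, was at 0.238 (0.218 to 0.260) and 0.304 (0.274 to 0.337) times. Cluster 28 of this class (39 PHZ and 35 bleeding cells) had 62.0% and 52.0% haemoglobin UMIs. Without it, a setting chosen after seeing the data, Epb41 was at 1.74 (1.65 to 1.83) times after PHZ and 3.06 (2.93 to 3.20) times after bleeding. Gypc was then at 1.99 (1.74 to 2.27) and 4.65 (4.12 to 5.25) times, so the PHZ intervals also lay above 1.

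In T cell-like cells with under 5% haemoglobin (515 and 2104) Epb41 measured 189 CPM after PHZ and 187 CPM after bleeding, 7.74 (7.19 to 8.31) and 9.73 (9.28 to 10.2) times the background ratio. Gypc measured 25.5 and 27.6 CPM, 7.71 (6.29 to 9.38) and 12.9 (11.3 to 14.7) times it. Among the 5 classes Epb41 was highest in NK cell-like cells, at 253 and 201 CPM, although only 63 PHZ and 156 bleeding cells were measured. In neutrophil-like cells (277 and 104) Epb41 measured 106 and 97.5 CPM and Gypc only 7.43 and 3.90 CPM, on 28 and 4 UMIs. Over all neutrophil-like cells Epb41 was at 0.848 (0.782 to 0.918) times the background ratio after PHZ and 0.880 (0.750 to 1.03) times after bleeding, so the direction turned with the limit. Gypc was at 0.294 (0.200 to 0.418) and 0.187 (0.0507 to 0.482) times over the same cells. Over all T cell-like cells Epb41 was at 1.49 (1.40 to 1.59) and 2.31 (2.21 to 2.42) times after PHZ and after bleeding. Gypc there was at 1.17 (0.962 to 1.42) and 2.66 (2.33 to 3.03) times. In all NK cell-like cells Epb41 was at 1.23 (1.03 to 1.45) and 2.20 (1.93 to 2.50) times. Their Gypc was at 0.378 (0.138 to 0.826) and 1.92 (1.21 to 2.89) times. Of the other 6 members under the limit, Epb42 in PHZ neutrophil-like cells at 1.73 (1.09 to 2.61) times, Sptb in PHZ B cell-like cells at 1.27 (1.03 to 1.55) times and Sptb in bleeding neutrophil-like cells at 2.29 (1.09 to 4.24) times, on 10 UMIs, had intervals above 1. Intervals lay below 1 for Slc4a1, Sptb, Epb42 and Rhag in bleeding B cell-like cells, for Slc4a1 and Rhag in bleeding T cell-like cells, for Slc4a1 in bleeding NK cell-like cells and for Dmtn in PHZ neutrophil-like cells. Gypc was again higher in monocyte-like cells (149 and 65), with 21.1 and 14.9 CPM. Over all monocyte-like cells Epb41 was at 1.26 (1.12 to 1.42) times the background ratio after PHZ and 0.857 (0.732 to 0.997) times after bleeding. Gypc over these cells was at 1.27 (0.894 to 1.75) and 0.483 (0.239 to 0.873) times. Protein 4.1 and glycophorin C are known to be made in many cell types besides red cells. Without the limit on haemoglobin, Slc4a1 in B cell-like cells had a PHZ over bleeding ratio of 3.22 (2.83 to 3.67), where the background barcodes themselves held 2330.4 CPM after PHZ and 1103 CPM after bleeding.

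**Figure D5:**
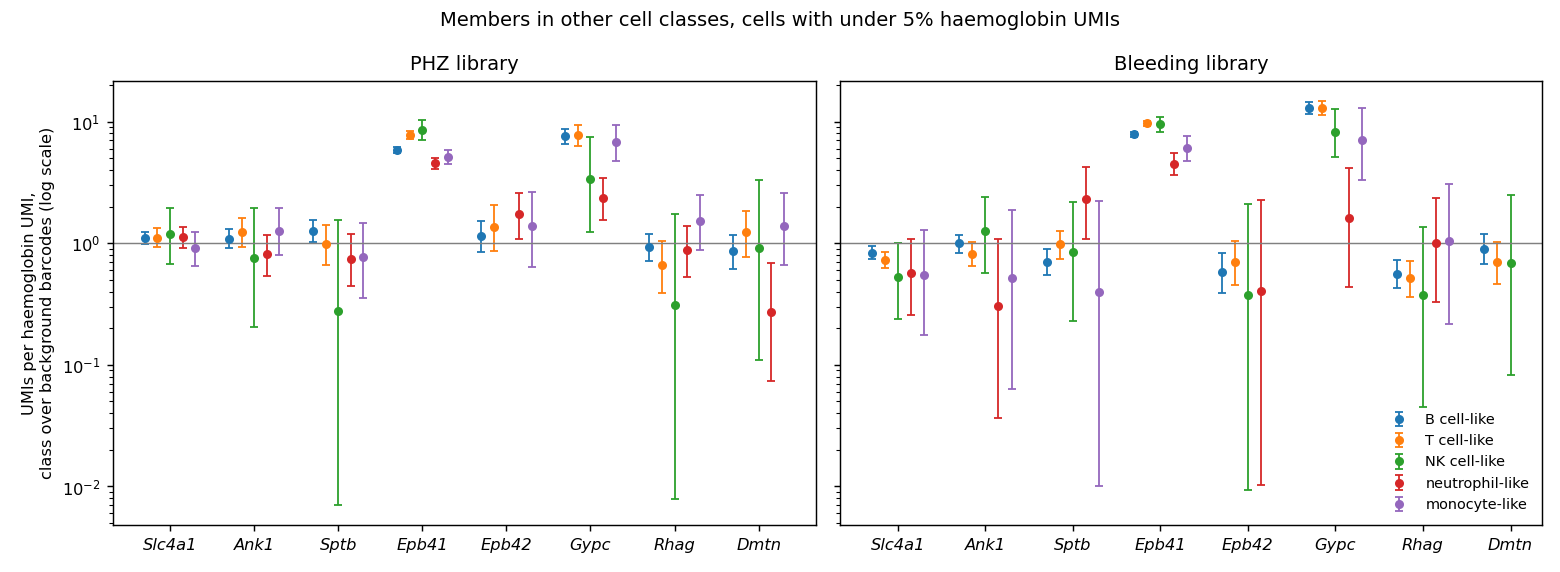
UMIs of each of the 8 genes per haemoglobin UMI in 5 other cell classes, divided by the same ratio in background barcodes (log scale; 1 is the grey line), for cells with under 5% haemoglobin UMIs after PHZ (left) and after bleeding (right); bars are exact 95% intervals for counting error, and genes with no UMI are not drawn. Epb41 lies above the line in all 5 classes and Gypc in all 5 after PHZ; after bleeding the Gypc interval in neutrophil-like cells crosses the line. The other 6 genes lie on both sides of it after PHZ and mostly below it after bleeding. Over all cells, without the haemoglobin limit (not drawn), Epb41 and Gypc were below 1 in some classes.

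Red pulp macrophages take up old red cells. The red pulp macrophage-like cells (17 after PHZ and 212 after bleeding) had 47.2% and 53.1% haemoglobin UMIs. Over all of these cells, with no limit on haemoglobin, Epb41 was 1.13 times the background ratio after PHZ, with an interval that held 1, and 0.675 (0.641 to 0.711) times after bleeding. Slc4a1 was 0.207 (0.134 to 0.306) and 0.538 (0.503 to 0.574) times. Rhag was 0.555 (0.316 to 0.904) and 0.106 (0.0839 to 0.133) times, so the order of these 2 members differed between the cells measured in the libraries. The PHZ values rest on 17 cells with 200 UMIs of the 8 members in all. The class also differed in make-up, since 1 of its clusters held 0 PHZ and 88 bleeding cells. Under 5% haemoglobin 12 PHZ and 62 bleeding cells were left, where Epb41 was 2.20 (0.599 to 5.63) and 4.83 (3.65 to 6.27) times the background ratio and Slc4a1 1.07 (0.129 to 3.86) and 1.53 (0.816 to 2.63) times. Of the 8 members in these 62 bleeding cells, the interval of Epb41 alone lay above 1. The source of this RNA was not tested.

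Most relatives of the members were scarce in erythroid-like cells. Of 17 such genes, 3 (Slc4a7, Svil and Tgm2) had a mean of at least 10 CPM there. Of these, 1 was past 1.5-fold higher in PHZ (1.04% of all genes). It was Tgm2, a transglutaminase related in sequence to protein 4.2, at 1.56 (1.33 to 1.84), named after its value was seen. Sptbn1, the general beta spectrin, measured 2.18 CPM in PHZ erythroid-like cells and 7.65 CPM in bleeding ones, against 207 and 186 CPM in B cell-like cells and 229 and 237 CPM in T cell-like cells of those libraries. Epb41l2, a relative of protein 4.1, measured 3.13 and 6.93 CPM in erythroid-like cells and 143 and 132 CPM in B cell-like cells. Both had low PHZ over bleeding ratios in erythroid-like cells, 0.286 (0.199 to 0.407) and 0.451 (0.325 to 0.627), beside B cell marker sums that were lower in PHZ at every stage. Ank2, another ankyrin, was present before haemoglobin accumulated, with 20.1 and 10.6 CPM under 20% and 0.420 and 0 CPM at 50 to 80%, and its ratio over erythroid-like cells was 1.97 (1.52 to 2.60) on 298 PHZ and 70 bleeding UMIs; in red pulp macrophage-like cells of the bleeding library it was at 566 CPM. Of the wider list, 23 of 30 measured genes were above 1 in erythroid-like cells (58.8% of all genes). In these cells 1 was past 1.5-fold lower (2.67% of all genes), the adducin gene Add3 at 0.624 (0.535 to 0.729), named after its value was seen. Bsg was 0.998 (0.978 to 1.02), Cd47 1.02 (0.995 to 1.04) and Rhd 1.06 (1.04 to 1.09).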

How the data were processed

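Each deposited matrix held whole-number counts of unique molecules (UMIs) per gene and barcode, not normalized by the authors. Cell Ranger 7.0.0 and the mouse build mm10 are named in the submitters' processing notes, while the matrix header names version 4; whether intronic reads were counted is not given in the sources used here. Levels are 3′ tag counts with no length correction, so a gene's share of the members' UMIs is a share of tags.

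Kept barcodes had 1000 UMIs or more, 300 genes or more and no more than 10% of UMIs from mitochondrial genes (6445 PHZ and 9707 bleeding barcodes). Scrublet in scanpy 1.11.5 then scored the barcodes, and the 332 PHZ and 754 bleeding barcodes with the highest scores were removed as doublets. These numbers were set beforehand from the barcode count, at 0.8% per 1000 cells, and not by a cut on the score. Cells of both libraries were clustered together (2000 variable genes, 30 principal components, 15 neighbours, leidenalg 0.10.2, resolution 1), and the variable genes excluded the members and the other membrane genes. Class names needed 3 or more markers among the 50 leading genes of a cluster. Leading genes were ranked by fold over the median of the other clusters, a choice made after a ranking against all other cells had left erythroid clusters unnamed.

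UMIs were summed per library and group. CPM used UMIs without haemoglobin, and shares of all genes cover genes with a mean of at least 10 CPM. With 1 library per group no test was made; 95% intervals are exact (Poisson, or conditional on the sum) and cover counting error only. Alternatives changed the denominator, the weighting of cells, the UMI and gene minimum, doublet removal, the clustering resolution, the haemoglobin limits, the scaling between libraries, the filter on low counts, the background subtraction and the cells with most UMIs. The interval code was tested on simulated data. All 8 members are named, with membrane genes of most UMIs (1 gene that the rule names is not reported here) and relatives with at least 50 UMIs and an interval past 1.5-fold. Of 32285 genes, 32158 matched GENCODE M21. The members and lists were chosen with earlier results of these data known. No other columns of samples were present in the files.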

Additional observations from a re-analysis of the deposited data

Results flagged for a closer look

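For 5 members the PHZ over bleeding ratio lay above 1 in one erythroid stage and below 1 in another, with both 95% counting intervals clear of 1. Each group is 1 library, so the difference between stages was not tested. Slc4a1 had a ratio of 1.52 under 20% haemoglobin and 0.957 at 20 to 50%. Epb41 had 1.14 and 0.855 in the same stages. Epb42 had 1.18 under 20% and 0.828 in barcodes with 80% or more haemoglobin and 50 to 300 genes. Under 5% and at 5 to 20% haemoglobin, the ratios were 1.18 and 0.970 for Slc4a1 and 1.06 and 0.861 for Epb41. For Epb42 they were 1.05 and 0.787. With every cell given equal weight, the log2 ratios of Epb41 and Epb42 under 20% were -0.17 and -0.35. The log2 ratio of Slc4a1 at 20 to 50% was 0.083 without doublet removal and 0.012 at resolution 2. Gypc had 2.29 at 50 to 300 genes and 0.693 at 80% or more with at least 500 genes. The first of these Gypc values rests on counts within the range of free RNA. Rhag had 1.73 at 300 to 500 genes and 0.755 at 80% or more with at least 500 genes.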

How the results depend on the processing

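No paired analysis was possible because each group is 1 library, and no replicate could be left out. Of the PHZ over bleeding ratios recomputed under the alternatives, 507 moved by less than their counting interval and 70 moved by more. A further 12, whose main value lay past its counting interval, changed side. Ratios that changed side from within their interval are counted among the 507 and 70. Of the changes between stages these numbers were 382, 429 and 33, in the same order. The cause was not tested, beyond what each alternative changes by construction. Some alternatives could not alter every group, so the 507 include ratios that had no way to move. In the barcodes below the gene filter, the members' median log2 ratio was 0.353 in the main setting. It was the same with at least 2000 UMIs, without doublet removal, at resolution 2 and with the other haemoglobin limits. The 507 are thus a tally and not a measure of robustness.

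With haemoglobin kept in the denominator, the median log2 ratio of the members in erythroid-like cells was 0.74, beside 0.31 without it, the median of all genes was 0.49, beside 0.04, and Epb41 was at 0.25. On this scale the log2 changes over under 20% haemoglobin turned downward as follows. At 500 or more genes Ank1, Sptb, Rhag and Dmtn were at -2.22, -1.94, -2.23 and -1.97 in PHZ and -2.07, -1.91, -1.65 and -1.42 in bleeding. At 300 to 500 genes Sptb was at -2.99 and -2.92 and Epb42 at -0.47 and -0.19; at 50 to 300 genes Slc4a1 was at -1.07 and -0.48 and Epb42 at -2.61 and -2.11. Members past 2-fold at 50 to 80% numbered 4 in PHZ and 4 in bleeding.

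When every cell was given equal weight, the medians were 0.55 in erythroid-like cells and -0.054 under 20%, where 3 members were above 1 and Ank1, Epb41, Epb42, Rhag and Dmtn were at -0.0099, -0.17, -0.35, -0.13 and -0.098. Changes at 500 or more genes were then -0.39, -0.41 and -0.37 for Ank1, Rhag and Dmtn in PHZ and -0.45, -0.011, -0.092 and -0.11 for Ank1, Sptb, Rhag and Dmtn in bleeding. Sptb at 300 to 500 genes was at -0.19 and -0.39, and Epb42 at 50 to 300 genes at -0.083 and -0.088, in PHZ and bleeding.

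The erythroid-like median was 0.26 with at least 500 genes, where Epb41 was at 0.16, and 0.27 both without doublet removal and with clusters 15 and 18 added after seeing the data. Without doublet removal Slc4a1 and Rhag at 20 to 50% were at 0.083 and 0.016, and at resolution 2 Slc4a1 there was at 0.012. Without the 3 highest cells of each gene the median under 20% was 0.40. With background subtracted Ank1 at 50 to 300 genes was at -0.035. With limits of 15, 45 and 75% haemoglobin Slc4a1 in the second stage was at 0.057 and the change of Gypc at 500 or more genes in PHZ was 0.57. With cells under 5% haemoglobin as the first stage, chosen after seeing the data, the changes of Gypc at 500 or more genes, and of Sptb and Dmtn at 50 to 300 genes, were 0.024, 0.40 and 0.70 in PHZ, and those of Ank1 at 300 to 500 and Dmtn at 50 to 300 genes were 0.21 and 0.40 in bleeding. Late cells hold few UMIs of Gypc, Rhag and Dmtn, which limits those ratios.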
